A study of Oryza sativa with 12 samples.

Results

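The comparison described here sets crl1, a rice mutant that forms no crown roots, against wild type 4 h after auxin. It rests on 4 of the 12 arrays of the series, chosen by their labels alone: crl1 repetitions 1 and 2 and wild type repetitions 1 and 2, all sampled 4 h after indole-3-acetic acid (IAA, a natural auxin) was added to 1e-06 M. All seedlings were Oryza sativa of the cultivar Taichung 65 and 8 days old. They stood in liquid Murashige and Skoog medium of reduced strength from 1 day before the auxin was added. Each RNA extract pooled 20 stem bases, the piece of the seedling where crown roots start. The other 8 arrays held both genotypes, 2 arrays each, at 0 h (before auxin) and at 2 h with auxin. They served for the estimate of the spread and for the genotype difference at those times. The labels name no allele of crl1 and 1 mutant line, so the mutation and anything else that differs between this line and its wild type cannot be told apart. Seedlings held for 4 h without auxin were not analysed here.

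Crown roots are the shoot-borne roots that make up most of the root system of rice and other cereals. They start as primordia in the stem base, next to the vascular cylinder. CRL1 (CROWN ROOTLESS 1) is a transcription factor of the LOB domain family whose gene is switched on by auxin through auxin response factors, and rice without it starts no crown roots. Auxin acts by breaking down Aux/IAA repressors, which frees auxin response factors to turn on early genes such as those of the GH3 enzymes that conjugate auxin to amino acids. The design text gives the purpose as finding auxin-responsive genes that depend on CRL1. The names CRL1, CRL4 and CRL5 could not be tied to a gene in the gene table used, so their levels were not analysed here, and the mutated gene could not serve as a check of the labels.

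Values are MAS5 signals, linear intensities with 1 value per probe set, scaled by the authors to a trimmed mean of 100 on every array. The median rice probe set lay at 9.81 and 12.0 in wild type at 4 h, against 10.9 and 12.1 in crl1. Background was set for each array at the 95th percentile of 64 reporter probe sets for genes that rice lacks. Wild type had a background of 9.15 and 9.89 and crl1 one of 8.23 and 9.04, and the share of rice probe sets above it was 51.1% to 55.1%. The GAPDH 3' to 5' signal ratio, a measure of RNA integrity and labelling, was 8.34 and 7.16 in wild type against 6.81 and 8.11 in crl1, so the genotypes overlapped. The same ratio for actin was 8.30 and 8.73 in wild type against 9.75 and 12.9 in crl1, higher on both crl1 arrays, and its part in the results below was not tested. The array that stood apart in the series, wild type 2 h repetition 2 (GAPDH ratio 35.6), is not one of the 4, but it enters the estimate of the spread. It also enters the wild-type mean of every 2 h difference below, list medians included, and its part in those was not tested.

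Markers of several tissues that a cut stem base can hold were present in both genotypes. Of the 4 secondary-wall xylem markers, NAC076 lay under background on both crl1 arrays (signals given below). Summed xylem markers were at 350 and 419 in wild type against 524 and 281 in crl1. For 4 phloem markers the sums were 3543 and 4840 in wild type against 5651 and 3783 in crl1. In both tissues the genotypes overlapped. OSH1, a homeobox gene of the shoot meristem, gave signals of 519 and 788 in wild type against 781 and 785 in crl1. Summed over 5 genes of shoot meristem and young stem, signals were 2063 and 2714 in wild type against 2377 and 2482 in crl1, which overlapped. Their log2 differences (crl1 minus wild type) ran from -0.19 to 1.17. WOX11, a homeobox gene that in rice promotes crown root emergence and growth, gave 263 and 176 in wild type against 389 and 359 in crl1. Summed over 5 crown root primordium genes, signals were 442 and 439 in wild type against 650 and 616 in crl1. The log2 differences of these 5 genes ran from -0.51 to 0.80, with WOX11 the highest. Signals summed over 3 measured green leaf genes (RBCS, RCA and CAB2R) were 12073 and 12282 in wild type against 8069 and 9874 in crl1. Those summed over 2 root tip genes (PIN2 and RAA1) were 116 and 132 in wild type against 67.1 and 54.5 in crl1. The green leaf and root tip sums were lower on both crl1 arrays. Summed cyclin B and CDKB2 genes of dividing cells (5 of 5 measured) were at 824 and 974 in wild type against 1570 and 1092 in crl1, so this sum was higher on both crl1 arrays. Histones, also planned as markers of dividing cells, did not share this. Summed over 5 genes, they were at 6088 and 7659 in wild type against 6532 and 6678 in crl1, which overlapped. The part that these sums have in the results below was not tested, and in these bulk samples fewer cells of a type and less RNA per cell cannot be told apart.

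At 4 h, 26 of 32524 tested probe sets (0.0799%) passed an adjusted p of 0.05 in limma, 17 lower in crl1 (0.0523%) and 9 higher (0.0277%). At an unadjusted p under 0.05 there were 2393 (7.36%), 1255 higher and 1138 lower. The lower ones included a lectin gene, the lipoxygenase gene LOX3 and 10 genes known by LOC number only, at modelled log2 differences with a median of -3.40 (-3.25 with the 6 that were under background in crl1 at their bound). The higher ones had a modelled median of 3.15, or 1.62 with the 4 that were under background in wild type at their bound, and included no gene with a name of its own. Of the 26, 17 probe sets have a single gene in the platform annotation (16 genes), and 9 are given by their probe set identifier because no single gene is paired with them. The 16 genes do not neighbour each other: the nearest on 1 chromosome were 672 genes apart in the gene order. The median difference of all tested probe sets was 0.03 on the log2 scale (crl1 minus wild type throughout), and the median standard error was 0.34. No exact test on 2 against 2 arrays can go below a two-sided p of 0.333. Each call therefore rests on the limma model, which pools the spread over the 6 groups and borrows from the spread of other probe sets.

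**Figure D1:**
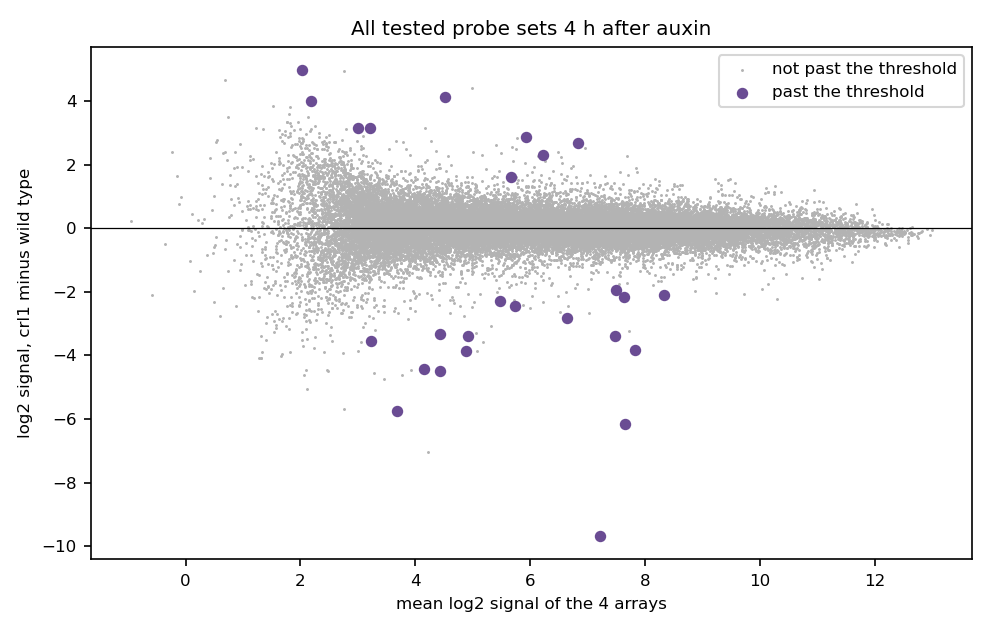
Each point is 1 of the 32524 tested probe sets, with the mean log2 signal of the 4 arrays on the horizontal axis and the log2 difference at 4 h (crl1 minus wild type) on the vertical axis. Purple points are the 26 past the threshold, from -9.68 to 4.98, and the grey cloud widens towards dim probe sets.

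How many passed moved with the arrays in the fit. Leaving out a 4 h array changes that group's mean and leaves 1 array in it, which is then assumed to vary like the other groups. Leaving out wild type 4 h repetition 1 left 8 calls, and leaving out crl1 4 h repetition 1 or 2 left 7 each time. Fits that lacked 1 wild-type array of 0 h gave 11, those that lacked 1 crl1 array of 0 h gave 17, and those that lacked crl1 2 h repetition 1 or 2 gave 16 or 15. Fits that lacked repetition 1 or 2 of wild type 2 h, the group with the array that stood apart, gave 44 or 43, with all 26 among them. The fit that lacked wild type 4 h repetition 2 gave 19. Probe sets that passed in all 12 of these fits numbered 4: Os.8655.1.S1_at, Os.51655.1.S1_at of LOC4346054, LOC4341593 and LOC4327816. Across the 26, the median was 4 of 12 fits passed.

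The brightest of the lower genes in wild type was Agglutinin (LOC4335068), named for a lectin, a protein that binds carbohydrates. Its signals were 2081 and 1391 in wild type against 9.38 and 59.8 in crl1. Both crl1 arrays lay far below both wild-type arrays, and crl1 repetition 1 was near background. The log2 difference was -6.17 ± 0.66 (SE, 2 arrays per genotype; limma adjusted p = 0.00542), and with wild type 4 h repetition 1 left out the adjusted p was 0.0903. A lectin difference of similar size stood at 0 h (-6.74) and 2 h (-7.14).

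LOX3 (LOC4333818) encodes a lipoxygenase, an enzyme that adds oxygen to polyunsaturated fatty acids at the start of the route to oxylipins such as jasmonate. Its signals were 66.5 and 69.7 in wild type against 6.43 and 7.16 in crl1. Both crl1 values lay under background, so the gene was at least 7.89-fold lower in crl1 (modelled log2 difference -3.33 ± 0.50, limma adjusted p = 0.0478, which no other call exceeded). It passed in 4 of the 12 fits that left out an array.

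The widest difference belonged to a probe set with no gene in the annotation, Os.8655.1.S1_at. It gave 4321 and 4169.9 in wild type against 6.77 and 3.98 in crl1, which put it among bright transcripts of wild type and under background on both crl1 arrays. It was at least 492-fold lower in crl1 (limma adjusted p = 0.00296). Before auxin the crl1 arrays read 99.6 and 6.86 and the wild-type arrays 3266 and 3847.

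LOC4346054 was the single gene called through both of its tested probe sets. Os.51655.1.S1_at gave 75.5 and 117 in wild type against 1.48 and 2.04 in crl1, at least 10.9-fold lower in crl1 (limma adjusted p = 0.00296). Os.51655.2.S1_x_at gave 83.3 and 117 in wild type against 13.7 and 6.43 in crl1, a modelled log2 difference of -3.39 ± 0.43 (adjusted p = 0.024), with crl1 repetition 2 under background. The suffix x_at marks a set with probes that also match other transcripts, so the size of the second value is uncertain, as it is for each x_at probe set below. Both probe sets agreed in direction, and in neither did the genotypes overlap, which their choice by these same values favours.

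A further pair of genes, LOC4341593 and LOC4325636, was measured in wild type and lay under background on both crl1 arrays. LOC4341593 gave 92.4 and 112 in wild type against 5.77 and 3.6 in crl1 and was at least 11.8-fold lower (limma adjusted p = 0.00289). LOC4325636 gave 51.2 and 132 in wild type against 2.9 and 5.09 in crl1 and was at least 9.52-fold lower (adjusted p = 0.0372). Its wild-type arrays differed more from each other than those of LOC4341593, and it passed in 2 of the 12 fits that left out an array. The probe set OsAffx.3270.1.S1_at, with no gene, was of the same kind at 31.2 and 32.9 in wild type against 1.93 and 3.96 in crl1 (at least 3.71-fold lower, adjusted p = 0.0478).

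Other genes were bright in wild type and lower, yet above background, on both crl1 arrays. LOC4332245 gave 971 and 760.5 in wild type against 68 and 53.5 in crl1 (log2 difference -3.83 ± 0.41, limma adjusted p = 0.00542). LOC4340344 gave 585 and 578 in wild type against 60.1 and 50.3 in crl1 (-3.40 ± 0.37, adjusted p = 0.00591). In both genes the 2 arrays of a genotype lay close together and the genotypes differed 14.3-fold and 10.6-fold. LOC4328830 gave 666 and 675 in wild type against 145 and 166 in crl1 (-2.11 ± 0.21, adjusted p = 0.00325). LOC4327816 gave 398 and 439 in wild type against 90.5 and 97.2 in crl1 (-2.16 ± 0.19, adjusted p = 0.00296), and LOC4345254 gave 352 and 352 in wild type against 92.5 and 91 in crl1 (-1.94 ± 0.19, adjusted p = 0.00296). The last 3 genes had the smallest differences among the lower genes and also the smallest standard errors.

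The remaining lower calls reached signals of 72.1 to 295 in wild type. LOC4329975 gave 94.7 and 135 in wild type against 4.85 and 12.3 in crl1 (modelled log2 difference -3.87 ± 0.58, limma adjusted p = 0.0478), with crl1 repetition 1 under background and repetition 2 close to it, so the size is uncertain. LOC4337245 gave 138 and 113 in wild type against 25.2 and 20.5 in crl1 (-2.45 ± 0.33, adjusted p = 0.0351). Its other probe set, Os.50864.1.S1_x_at, stood at -2.48 with an adjusted p of 0.0706, so the direction agreed and the call did not. The probe sets without a gene, Os.51637.1.S1_x_at (-2.83) and Os.54178.1.S1_at (-2.28), had an adjusted p of 0.0478. In all 4, every wild-type array lay above every crl1 array, which their choice by these same values favours.

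Among the 9 higher in crl1, 4 genes and 1 probe set without a gene were measured above background in crl1 and, on at least 1 array, in wild type. Os.23790.1.S1_at, without a gene, gave 44.8 and 45.1 in wild type against 284 and 291 in crl1 (log2 difference 2.68 ± 0.28, limma adjusted p = 0.0046). The arrays of each genotype nearly coincided, and it passed in 9 of the 12 fits that left out an array. LOC4325628 gave 35.3 and 32.4 in wild type against 191 and 145 in crl1 through Os.28433.4.A1_at (2.30 ± 0.22, adjusted p = 0.00296) and passed in 11 of 12. Its other probe set, Os.28433.1.S1_at, pointed the other way at -0.63 (adjusted p = 0.905), so the direction of the gene as a whole is uncertain.

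LOC4339315 gave 16.7 and 29.9 in wild type against 178 and 153 in crl1 (log2 difference 2.89 ± 0.40, limma adjusted p = 0.0372). LOC4340879 gave 29.5 and 28.8 in wild type against 85.6 and 93.4 in crl1 (1.62 ± 0.24, adjusted p = 0.0478), the smallest difference called. Its other probe set, Os.49289.1.S1_x_at, stood at 1.60 with an adjusted p of 0.247, so the direction agreed and the call did not. LOC4328018 gave 11.7 and 2.51 in wild type against 98.6 and 93.8 in crl1 (4.15 ± 0.58, adjusted p = 0.0372), with crl1 arrays close together, wild type repetition 1 just above background and repetition 2 under it. These genes passed in 4, 2 and 4 of the 12 fits that left out an array.

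The other 4 higher probe sets have no gene and lay under background on both wild-type arrays. Os.27208.1.S1_at gave 0.662 and 0.798 in wild type against 23.4 and 22.4 in crl1, at least 2.41-fold higher (limma adjusted p = 0.0478, and 0.0502 with repetition as a block, the single call of the 26 that this block ended). Os.45963.1.S1_x_at gave 2.82 and 3.43 in wild type against 31.2 and 24.8 in crl1 (at least 2.92-fold, adjusted p = 0.0372). Os.7307.3.S1_x_at (at least 2.53-fold) and Os.1948.1.A1_at (at least 1.92-fold) were similar, with crl1 signals of 25.9 and 22.3 and 17.6 and 18.9. All 4 were dim in crl1 too, so the bounds are small although the modelled differences were 3.15 to 4.98.

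**Figure D2:**
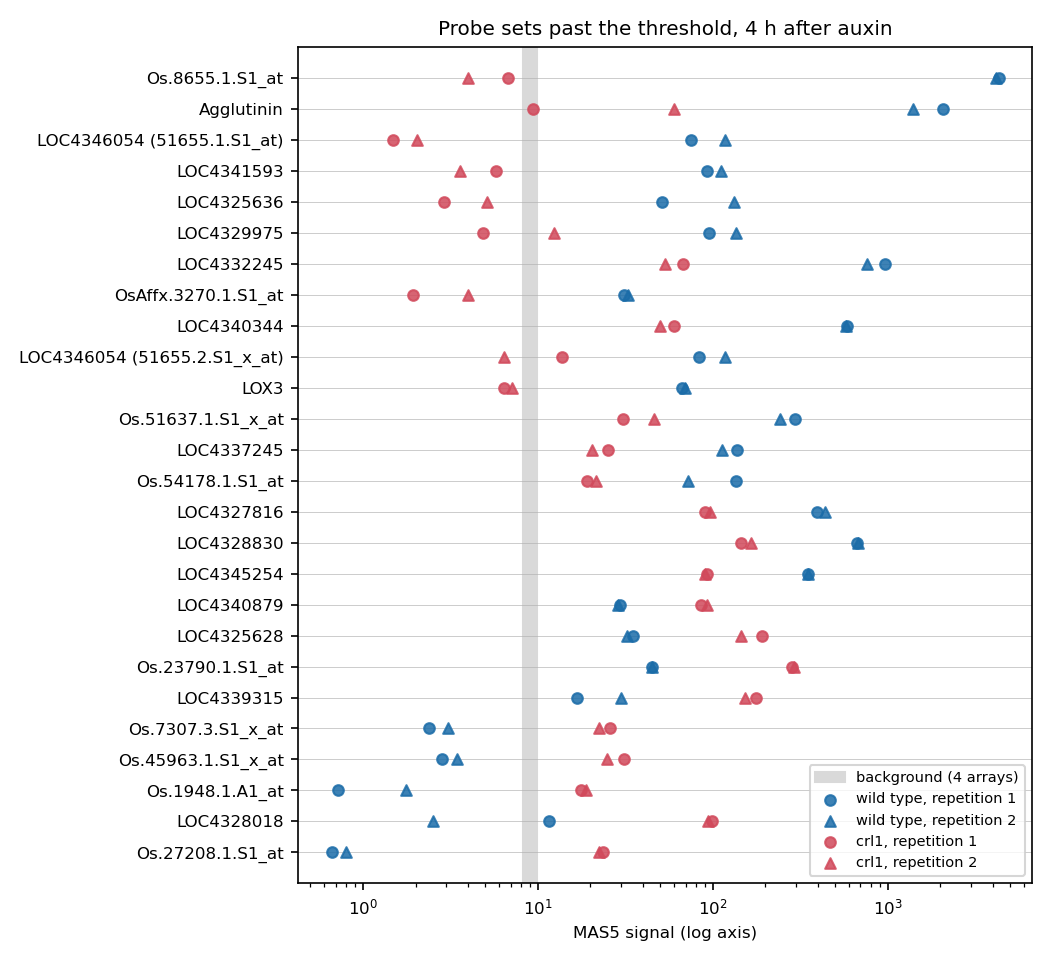
MAS5 signal (log axis) of the 26 probe sets past the threshold on the 4 arrays at 4 h, ordered by log2 difference, with wild type in blue, crl1 in red, circles for repetition 1 and triangles for repetition 2. The grey band spans the background of the 4 arrays, 8.23 to 9.89. In no probe set do blue and red overlap, which the choice of these probe sets by the same 4 h values favours. Over all tested probe sets, crl1 was apart on the higher side in 23.5% and on the lower side in 20.5%.

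Most of the lower probe sets had been lower before auxin was added. Of the 17, 14 also passed at 0 h and 14 at 2 h, where 0.0892% and 0.0615% of all tested probe sets passed on the lower side. Their modelled median difference was -3.58 at 0 h, -3.55 at 2 h and -3.40 at 4 h, and -3.11, -2.65 and -3.25 with those under background in crl1 at their bound. In 16 of the 17 the genotypes were apart on the same side at all 3 times. Of all tested probe sets, crl1 was apart on the lower side in 24.3% at 0 h, 15.7% at 2 h and 20.5% at 4 h. The exception was OsAffx.3270.1.S1_at, whose 0 h signals were 33.1 and 15.6 in wild type against 19.4 and 10.9 in crl1 and overlapped.

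The higher probe sets had smaller differences at the earlier times. They were chosen by their 4 h values, and that choice alone favours larger differences at 4 h than at 0 h or 2 h. Of the 9, 1 passed at 0 h and 3 at 2 h, where 0.0123% of all tested probe sets passed on the higher side each time, and their modelled median difference was 0.94 at 0 h, 1.44 at 2 h and 3.15 at 4 h. With those under background in wild type at their bound, the medians were 0.94, 1.15 and 1.62. LOC4328018 illustrates this: at 0 h its signals were 35.9 and 52.4 in wild type against 33 and 55.2 in crl1, at 2 h they were 31.4 and 40.4 in wild type against 81.8 and 114 in crl1, and the log2 differences were -0.02, 1.44 and, at 4 h, 4.15. Wild type was at its lowest at 4 h, and crl1 was above its own 0 h arrays at both later times. Os.7307.3.S1_x_at read 14.6 and 13.5 in wild type at 0 h against 2.39 and 3.05 at 4 h, while crl1 read 12.7 and 11.2 and then 25.9 and 22.3. Os.1948.1.A1_at went from 10.2 and 8.98 to 0.723 and 1.77 in wild type and from 12.1 and 14.9 to 17.6 and 18.9 in crl1. Before auxin, Os.1948.1.A1_at was already under background on wild type repetition 2 (background 10.1) and on crl1 repetition 1 (background 12.6). Its signals thus moved close to background, and the size of its change since 0 h is uncertain for either genotype. In both probe sets the wild-type signals were lower at 4 h, where they lay under background, than at 0 h.

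The change of the genotype difference over time was tested directly, and no probe set passed. The genotype difference at 4 h differed from that at 0 h for 0 of 32524 probe sets in limma (0%; smallest adjusted p 0.99, with 1090, or 3.35%, at an unadjusted p under 0.05), and from that at 2 h for 0 (smallest 0.895, with 1233, or 3.79%, unadjusted). For LOC4328018 the change in the difference from 0 h was 4.18 ± 0.82 (unadjusted p = 0.00036, adjusted 0.99). A call at 4 h without one at 0 h is therefore not shown to be a change of the genotype difference. The fit without wild type 2 h repetition 1, where the array that stood apart is alone in its group, was an exception for the 2 h contrast, with 1705 probe sets.

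**Figure D3:**
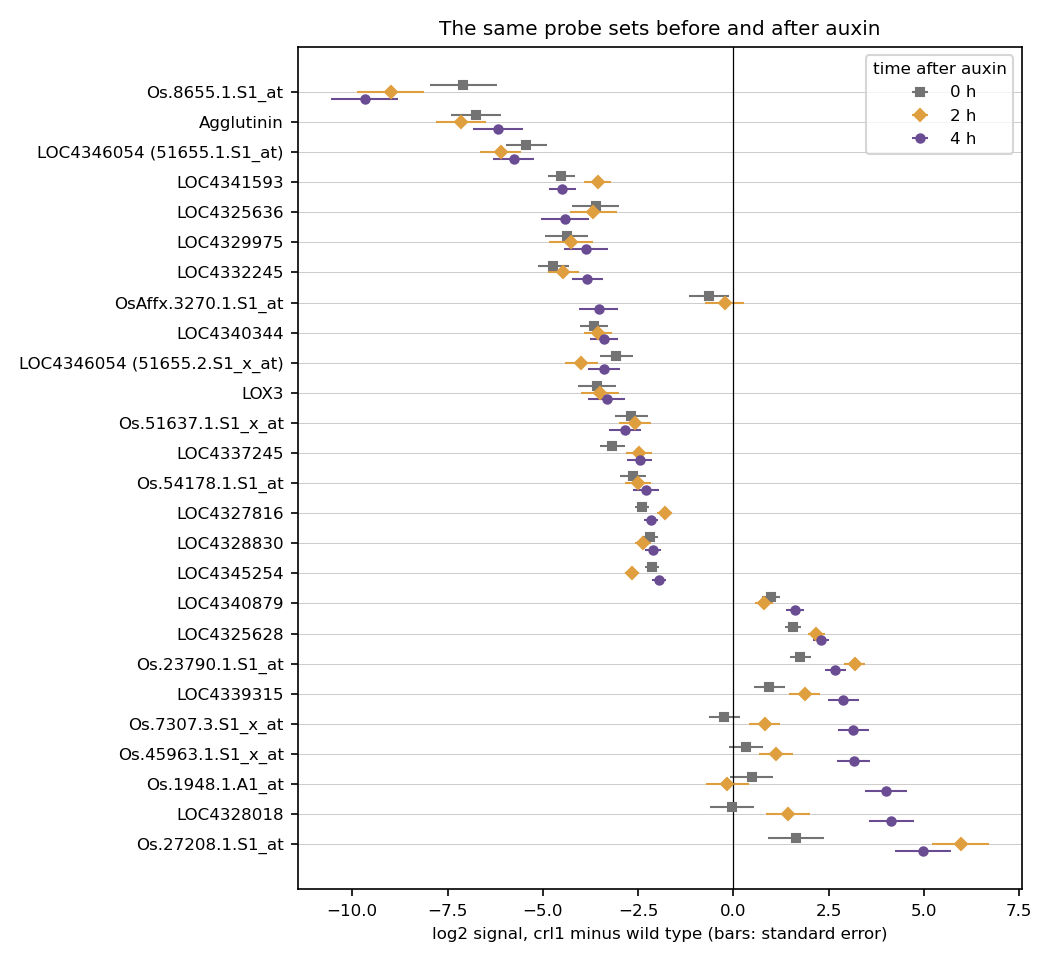
Log2 difference (crl1 minus wild type) of the same 26 probe sets at 0 h (grey squares), 2 h (orange diamonds) and 4 h (purple circles), with bars for the standard error of the 12-array fit. The 17 lower probe sets lie left of 0 at all 3 times, OsAffx.3270.1.S1_at only slightly at 0 h (-0.64) and 2 h (-0.23), and several of the higher ones lie near 0 at 0 h.

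Genes with a name that fell short of the threshold, but had an unadjusted p under 0.01, arrays apart and signals above background in the higher genotype, numbered 42 higher and 35 lower. The platform annotation held 2471 genes with a name before the filter. Of all 16438 measured genes, 720 were higher and 620 lower at an unadjusted limma p under 0.05. The share of all genes that met the joint conditions was not counted, so no excess is read from the 42 and 35. The nearest to the threshold was NAC076 (LOC4341201), of the NAC transcription factor family, at 44.8 and 53.2 in wild type against 0.893 and 0.988 in crl1 (log2 difference -5.70 ± 0.87, limma adjusted p = 0.0527; at least 5.66-fold). Both crl1 arrays were under background, as they were at 0 h (5.88 and 0.975), and its adjusted p was 0.0299 at 2 h. IPA1 (LOC4345998), a squamosa promoter binding factor that shapes tillering and panicles in rice, gave 108 and 74.2 in wild type against 33.1 and 30.7 in crl1 (-1.49 ± 0.30, adjusted p = 0.154). Its difference was -2.20 at 0 h, where it passed (adjusted p = 0.0266), and -2.11 at 2 h (adjusted p = 0.0339). CHT5 (LOC4336265), named for a chitinase, gave 840.1 and 342 in wild type against 170.5 and 169 in crl1 (-1.66 ± 0.34, adjusted p = 0.165), and the spread between its wild-type arrays was wide.

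On the other side, MFT2 (LOC4326145), of the family of phosphatidylethanolamine-binding proteins that includes florigen, gave 3.87 and 11.9 in wild type against 110.3 and 196 in crl1 (log2 difference 4.44 ± 1.14, adjusted p = 0.328). Wild type repetition 1 lay under background and repetition 2 just above it, so the size is uncertain. At 0 h both wild-type arrays lay under background (3.25 and 2.28), with 57.3 and 274 in crl1, at least 16.3-fold higher. CIPK6 (LOC4345687), a kinase of the calcium-sensing CBL and CIPK system, gave 114 and 137 in wild type against 519 and 359 in crl1 (1.79 ± 0.36, adjusted p = 0.169). PIP2-5 (LOC4343121), an aquaporin of the plasma membrane, gave 117 and 275 in wild type against 651 and 401 in crl1 (1.51 ± 0.48, adjusted p = 0.504). As their choice required, both crl1 arrays lay above both wild-type arrays in all 3 genes, and none passed. The rest of these genes were IRL2, BURP16, SAT1 and BGLU5 on the lower side (-2.08 to -1.37) and EGY3, BGLU1 and GLU15 on the higher side (1.65 to 2.17 as modelled, with EGY3 and BGLU1 under background in wild type), besides genes given with their lists below.

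BU1 (LOC4340551), a helix-loop-helix protein that in rice raises leaf bending under brassinosteroid, had opposite signs at the ends of the series. At 0 h it gave 490.4 and 505 in wild type against 262 and 335 in crl1, and at 4 h 221 and 131 in wild type against 430.1 and 453 in crl1. Wild type was the higher genotype at 0 h and crl1 at 4 h, with no overlap either time. The log2 difference was -0.75 at 0 h and 1.38 ± 0.28 at 4 h (adjusted p = 0.169), and the change between them was 2.12 ± 0.40 (unadjusted p = 0.00024, adjusted 0.99), so neither value passed.

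Gene lists, which were drawn up with earlier results of these data known, are described by their counts beside all 16438 measured genes (1 probe set per gene, the brightest). Over all genes the median log2 difference was 0.04, 55.3% lay above 0, the arrays were apart with crl1 higher in 26.5% and with crl1 lower in 21.4%. LOX3 was the single member of 39 lists that passed the threshold.

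Enzymes that build the primary wall came first among them by the size of the median. Primary-wall cellulose synthases, the subunits of the complex that makes cellulose in growing cells, had a median of 0.71 over 6 of 6 members. All 6 lay above 0, in 5 of 6 (83.3%) the arrays were apart with crl1 higher, and none passed. CESA6 (LOC4342850) gave 337 and 515 in wild type against 805 and 688 in crl1 (log2 difference 0.84 ± 0.30, limma adjusted p = 0.572). CESA5 (LOC4334710) gave 448 and 619 in wild type against 875 and 905 in crl1 (0.76 ± 0.23, adjusted p = 0.422). In both, crl1 was higher on both arrays, whereas CESA3 (LOC4343049) overlapped at 1306 and 1637 in wild type against 1957 and 1603 in crl1. The list's median was 0.07 at 0 h and 0.53 at 2 h.

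Expansins loosen the wall as cells grow, and xyloglucan endotransglucosylases cut and rejoin its xyloglucan. Of 25 measured members of that list, 19 lay above 0 with a median of 0.43, and in 12 (48%) crl1 was apart on the higher side and in 3 (12%) on the lower side. EXPB11 (LOC4330213), a beta-expansin, gave 392 and 443 in wild type against 1537 and 989 in crl1 (log2 difference 1.56 ± 0.25, limma adjusted p = 0.0633). EXP2 (LOC4327568), an alpha-expansin, gave 682 and 859 in wild type against 1757 and 1624 in crl1 (1.14 ± 0.19, adjusted p = 0.0721). These were the nearest to the threshold in the list, and at 0 h their differences were 0.33 and 0.27. EXPB18 (LOC4338206), another beta-expansin, lay the other way at 71.3 and 80.4 in wild type against 5.99 and 20.5 in crl1 (-2.77 ± 0.59, adjusted p = 0.202), with crl1 repetition 1 under background. At 0 h both crl1 arrays were under background (4.62 and 2.94), and the gene was at least 4.18-fold lower. EXLA1 and EXLA2, expansin-like genes, were also on the lower side at -0.97 and -0.99. The median of the list was 0.18 without wild type 4 h repetition 1 and 0.56 without repetition 2.

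Cellulose synthase-like genes make other wall polysaccharides. Their median was 0.26 over 18 measured members, 14 of them above 0, and 0.15 without wild type 4 h repetition 1. CSLC7 (LOC4339283) gave 122 and 136 in wild type against 217 and 212 in crl1 (log2 difference 0.74 ± 0.20, limma adjusted p = 0.374). CSLF6 (LOC4344719), which makes the mixed-linkage glucan of grass walls, gave 257 and 391 in wild type against 601 and 515 in crl1 (0.81 ± 0.31, adjusted p = 0.604). CSLC3 (LOC4345095) was on the other side at 16 and 80.2 in wild type against 7.32 and 5.55 in crl1. Both crl1 arrays were under background, so it was at least 4.15-fold lower (modelled log2 difference -2.49 ± 0.72, adjusted p = 0.404), and its wild-type arrays were far from each other. Secondary-wall cellulose synthases (3 members) had a median of 0.18, but -0.36 without crl1 4 h repetition 1 and 0.63 without repetition 2, so they had no settled direction.

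**Figure D4:**
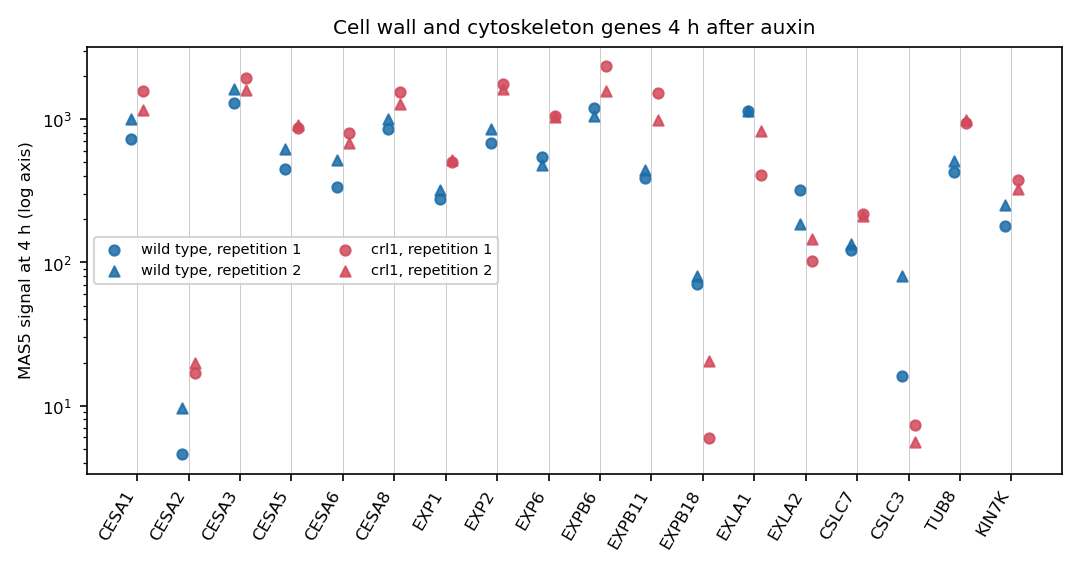
MAS5 signal (log axis) of 18 cell wall and cytoskeleton genes on the 4 arrays at 4 h, with wild type in blue, crl1 in red, circles for repetition 1 and triangles for repetition 2. Red lies above blue in most expansins and cellulose synthases, and below in EXPB18, EXLA1, EXLA2 and CSLC3. None of these genes passed the threshold.

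Kinesins, motors that move along microtubules in division and in transport, gave the list with the most members apart on one side. Of 33 measured, 29 lay above 0, in 23 (69.7%) crl1 was apart on the higher side and in 1 on the lower, and the median was 0.49 with none past the threshold. KIN7K (LOC4349100) gave 181 and 252 in wild type against 375 and 325 in crl1 (log2 difference 0.71 ± 0.21, limma adjusted p = 0.422). KIN5A (LOC9268593) gave 80.00 and 84.7 in wild type against 127 and 129.7 in crl1 (0.64 ± 0.22, adjusted p = 0.542). Differences ran from -0.39 to 0.88 across the list. The median was -0.12 at 0 h and -0.29 at 2 h, with 8 and 9 of 33 above 0, and at 4 h it was 0.30 without wild type 4 h repetition 1.

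Other lists of dividing cells differed in their medians. The 5 cyclin B and CDKB2 genes of the marker sum above had a median of 0.49, with 5 of 5 above 0 and 3 apart on the higher side (60%), and medians of 0.29 at 0 h and -0.73 at 2 h. Cell cycle and replication genes (52 measured, these 5 among them) had a median of 0.12, with 17 apart on the higher side (32.7%) and 7 on the lower. Without wild type 4 h repetition 1 that median was 0.01 and without repetition 2 it was 0.30. Histones (5 measured) had a median of -0.04, which was -0.26 and 0.11 without these same arrays. RPA2C (LOC9266781), a subunit of the protein that coats single-stranded DNA, had the smallest p among them, at 49.6 and 39.5 in wild type against 92.1 and 79.7 in crl1 (log2 difference 0.95 ± 0.25, limma adjusted p = 0.347). Tubulins, the units of microtubules, had a median of 0.05 over 9 members (-0.05 to 0.06 with 1 of the 4 arrays left out). TUB8 (LOC4333632) stood out from them at 429.9 and 512 in wild type against 948 and 989 in crl1 (1.05 ± 0.21, adjusted p = 0.154), while the other 8 lay between -0.24 and 0.40. Cytosolic ribosomal proteins (23 measured) had a median of 0.04 (-0.06 to 0.11).

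Photosynthesis and clock genes lay on the lower side. All 6 measured photosynthesis genes were below 0, with a median of -0.50 and 4 of 6 apart (66.7%). RBCS (LOC4351966), the small subunit of Rubisco, gave 2243 and 1856 in wild type against 807 and 1056 in crl1 (log2 difference -1.14 ± 0.22, limma adjusted p = 0.133). RCA (LOC4351224), the activase of Rubisco, gave 2854 and 2678 in wild type against 1086 and 1634 in crl1 (-1.05 ± 0.25, adjusted p = 0.272). These 2 genes also make up most of the difference in the green leaf marker sum above, and the chlorophyll-binding gene CAB2R in that sum overlapped between genotypes at 6976 and 7749 in wild type against 6177 and 7184 in crl1. The list's median was 0.15 at 0 h and -0.28 at 2 h. All 6 clock genes were below 0 as well, with a median of -0.26 at 4 h, or -0.14 without wild type 4 h repetition 1. Their median was -0.38 at 0 h and 0.01 at 2 h, where 3 of 6 lay above 0. PRR95 (LOC4347674), a pseudo-response regulator of the clock, had the largest difference of them at -0.54 ± 0.29 (adjusted p = 0.749).

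**Figure D5:**
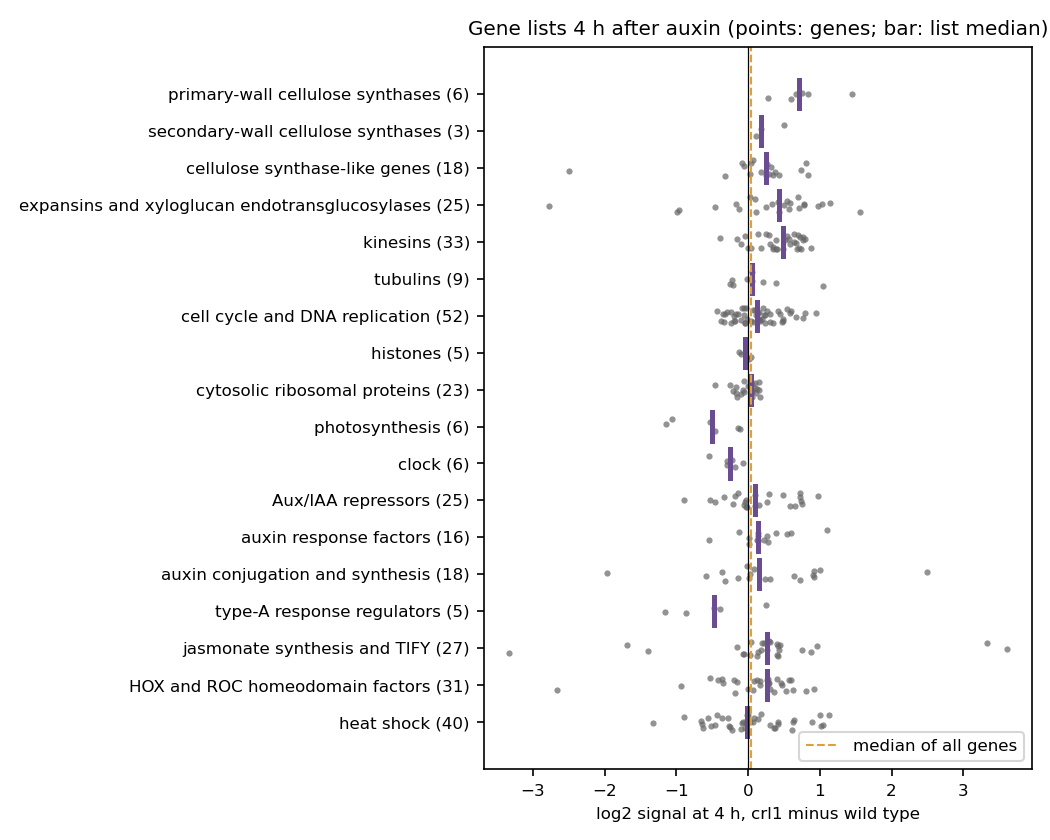
Log2 difference at 4 h (crl1 minus wild type) of the measured members of 18 gene lists, 1 point per gene, with the list median as a purple bar and the number of genes in parentheses. The dashed line marks the median of all genes, 0.04, and the bars of primary-wall cellulose synthases (0.71) and kinesins (0.49) lie to its right and that of photosynthesis (-0.50) to its left.

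Auxin signalling genes had medians near that of all genes. Aux/IAA repressors (25 measured) had a median of 0.09, with 6 apart on the higher side (24%) and 3 on the lower. It ran from 0.01 without wild type 4 h repetition 2 to 0.26 without crl1 4 h repetition 2. IAA2 (LOC4326775) gave 1054 and 1191 in wild type against 553 and 665 in crl1 (log2 difference -0.89 ± 0.22, limma adjusted p = 0.31). IAA31 (LOC4352722) gave 1056 and 1434 in wild type against 1979 and 2070.3 in crl1 (0.72 ± 0.21, adjusted p = 0.424), and IAA1 (LOC4334069) gave 2475 and 1839 in wild type against 3426 and 3281 in crl1 (0.65 ± 0.19, adjusted p = 0.413). The genotypes did not overlap in these 3 genes, which their choice by the smallest p favours, and the 3 lay on different sides. Auxin response factors (16 measured) had a median of 0.15, with 14 above 0. ARF3 (LOC4327014) gave 163 and 129 in wild type against 412 and 235 in crl1 (1.10 ± 0.32, adjusted p = 0.404).

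GH3 enzymes are the usual early readout of auxin. GH3.2 (LOC4326893) gave 3796 and 1688 in wild type against 3110.1 and 3146 in crl1 at 4 h. Before auxin it had read 205 and 289.99 in wild type and 166 and 210.4 for crl1. Its signal was far above that before auxin on all 4 arrays, the genotypes overlapped, and the log2 difference was 0.31 ± 0.39 (limma adjusted p = 0.931). GH3-8 (LOC4343785) gave 143 and 109.99 in wild type against 239 and 235 in crl1 (0.92 ± 0.24, adjusted p = 0.341). ILL3 (LOC4334707), named for hydrolases that release auxin from amino acids, gave 16.6 and 30.8 in wild type against 194 and 84.3 in crl1 (2.50 ± 0.70, adjusted p = 0.393). IAMT1 (LOC4337315), which methylates auxin, gave 28.2 and 33.6 in wild type against 5.26 and 11.8 in crl1 (-1.96 ± 0.55, adjusted p = 0.393), with crl1 repetition 1 under background. At 0 h both crl1 arrays were under it (4.55 and 4.67), and the gene was at least 4.26-fold lower. In GH3-8, ILL3 and IAMT1 the arrays of the genotypes were apart, which their choice by the smallest p favours, on the lower side for IAMT1. Over the 18 measured genes of auxin conjugation and synthesis the median was 0.16, with 8 apart on the higher side (44.4%) and 4 on the lower.

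PIN2 (LOC4341736), an auxin efflux carrier of the root tip, and RAA1 (LOC4326229), a gene of root architecture, had passed at 0 h on the lower side (limma adjusted p = 0.0266 for both). PIN2 then lay under background on both crl1 arrays (4.53 and 6.02) and was at least 3.17-fold lower. RAA1 read 64.4 and 94 in wild type against 12.1 and 21.8 in crl1 at 0 h, with crl1 repetition 1 just under background. At 4 h PIN2 gave 24.1 and 33.9 in wild type against 12.6 and 11.6 in crl1 (-1.24 ± 0.39, adjusted p = 0.487), and RAA1 gave 92 and 98.3 in wild type against 54.5 and 42.9 in crl1 (-0.98 ± 0.32, adjusted p = 0.51). Both stayed apart on the lower side without passing. The change of the difference from 0 h had an adjusted p of 0.99 for each gene, and for PIN2 it is not a measured change, since the 0 h value is a bound.

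Cytokinin opposes root initiation in many plants, and its type-A response regulators damp its signal. Of 5 measured, 4 lay below 0, with a median of -0.47 that ran from -0.81 without wild type 4 h repetition 1 to -0.22 without repetition 2. The list's median was below 0 at the earlier times too, at -0.29 at 0 h and -0.41 at 2 h. RR4 (LOC4325747) gave 59.4 and 82.5 in wild type against 39.4 and 37.7 in crl1 (log2 difference -0.86 ± 0.24, limma adjusted p = 0.393). RR9 (LOC4349747) gave 166 and 250.3 in wild type against 80.8 and 104 in crl1 (-1.15 ± 0.46, adjusted p = 0.621). RR1 (LOC4335937) gave 14.8 and 28.7 in wild type against 32.4 and 18.6 in crl1, a log2 difference of 0.25 ± 0.42. RR2 (LOC4329677) gave 48.8 and 78.2 in wild type against 39.9 and 49.6 in crl1, a log2 difference of -0.47 ± 0.31. The genotypes overlapped in both. CKX4 (LOC4326515), a cytokinin oxidase that breaks cytokinin down, gave 48 and 54.6 in wild type against 177 and 162 in crl1 (1.73 ± 0.35, adjusted p = 0.177). The other 3 measured cytokinin oxidases lay below 0, CKX5 (LOC4327887) lowest at -1.01 ± 0.32.

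Factors of root primordia were measured in both genotypes. WOX11 (LOC4344325), at the signals given above, had a log2 difference of 0.80 ± 0.26 (limma adjusted p = 0.513), with -0.07 at 0 h and 0.62 at 2 h. WOX9 (LOC4324824), also called QHB and expressed in the quiescent centre of rice roots, was dim at 14.3 and 23.2 in wild type against 9.09 and 17.9 in crl1 (-0.51 ± 0.56, adjusted p = 0.915). SCR1 (LOC4349638), a GRAS factor of the endodermis, gave 20.2 and 32 in wild type against 40.4 and 40.6 in crl1 (0.67 ± 0.43, adjusted p = 0.809). SHR1 (LOC4343753), its partner, gave 42.2 and 67.7 in wild type against 57 and 57 in crl1 (0.09 ± 0.32). None passed, and with a standard error of 0.26 to 0.56 these arrays could not have shown small differences in them.

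Most jasmonate genes had differences above 0, unlike LOX3. Of 27 measured genes of jasmonate synthesis and TIFY repressors, 21 lay above 0 with a median of 0.27, and in 13 (48.1%) crl1 was apart on the higher side and in 4 on the lower. The median was 0.07 without crl1 4 h repetition 1. At the earlier times it was of similar size, 0.22 at 0 h and 0.31 at 2 h, with 18 and 20 of 27 above 0. AOS3 (LOC4328742), named for allene oxide synthase, gave 1.71 and 0.664 in wild type against 13.1 and 8.86 in crl1. Its wild-type arrays were under background, and so was crl1 repetition 2 (background 9.04), while crl1 repetition 1 lay above it. The 1.13-fold against background is therefore uncertain, and the modelled difference of 3.34 (limma adjusted p = 0.0797) is no bound. LOX5 (LOC4333823), another lipoxygenase gene, gave 242 and 324 in wild type against 602 and 445 in crl1 (0.88 ± 0.25, adjusted p = 0.404), the opposite side to LOX3.

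The other lists held no member past the threshold. Homeodomain factors of the HOX and ROC groups (31 measured) had a median of 0.27 (0.16 without wild type 4 h repetition 1), with HOX4 (LOC4347333) at 145 and 164 in wild type against 327 and 222 in crl1 (log2 difference 0.80 ± 0.27, limma adjusted p = 0.537). HOX14 (LOC4343726) lay far to the other side at 63.3 and 59.2 in wild type against 10.4 and 8.93 in crl1 (-2.67 ± 0.96, adjusted p = 0.572), with crl1 repetition 2 under background. Ethylene genes (9 measured) had a median of 0.32 (0.14 without crl1 4 h repetition 1), with the receptor gene ETR3 (LOC4331174) at 226 and 203 in wild type against 414 and 314 in crl1 (0.75 ± 0.27, adjusted p = 0.576). KNOX factors (9 measured) had a median of -0.13 (-0.23 to -0.03 with 1 of the 4 arrays left out), and NAC factors (7) one of -0.07 (-0.25 to -0.07). Heat shock genes (40 measured), aquaporins (24), ion transport (62), dehydration and abscisic acid (60), sugar transport and breakdown (32) and SPL factors (11) had medians between -0.10 and 0.18, and between -0.17 and 0.18 with 1 of the 4 arrays left out. WRKY factors (5 measured) had a median of 0.41, which was 0.02 with crl1 4 h repetition 1 left out and 0.78 with wild type 4 h repetition 2 left out. The LOG-like enzymes that activate cytokinin (8) had one of 0.26, which was 0.01 without crl1 4 h repetition 2. For auxin transport genes (5) it was 0.34, and its sign turned to -0.28 without crl1 4 h repetition 1. The size of these 3 medians turned on single arrays. Brassinosteroid genes (7) had a median of 0.19 (0.08 to 0.32 when either wild-type array of 4 h was dropped), and ERF and DREB factors (8) one of 0.15 (0.01 when crl1 4 h repetition 2 was dropped, 0.30 when wild type 4 h repetition 2 was). Light receptors (3) were at -0.21 (-0.45 without crl1 4 h repetition 2) and type-B response regulators (4) at -0.31 (-0.20 without crl1 4 h repetition 1). Gibberellin genes (10), MYB factors (10), GRAS factors (4), WOX factors (5) and peroxidases with chitinases (15) had medians of -0.11 to 0.13, and of -0.16 to 0.43 with 1 of the 4 arrays left out. Seed storage and amylase genes (11 of 15 measured), which would mark carried-over seed, had a median of -0.02, with single genes from -2.22 to 1.24. Their summed signals were 12439 and 10085 in wild type against 9680 and 12174 in crl1, which overlapped. The median of these seed genes was 0.20 at 0 h and 0.62 at 2 h.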

How the data were processed

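RNA of 12 stem base extracts was hybridised to the Affymetrix Rice Genome Array. As deposited, each probe set has 1 linear intensity, the MAS5 signal, which the authors computed with Affymetrix Expression Console (version not given in the sources used here), per the submitters' processing notes. Signals were taken to log2 as they stood. A rice probe set was kept where it exceeded the array's median on 2 or more of 12 arrays (32524). In R 4.3.3, limma 3.58.1 (lmFit and eBayes, trend included) fitted 1 mean per group to all 12 arrays (6 residual degrees of freedom). Tests were two-sided, with Benjamini-Hochberg adjustment over all kept probe sets and a threshold of 0.05. On simulated data, 13.4%, 56.7% and 78.8% of probe sets changed by 1, 2 and 4 log2 units at 4 h were recovered among 32524, with 3 false calls. The simulated noise was normal, independent between arrays and equal in spread on all 12. It held no effect shared by a repetition, no array that stood apart and no background floor. These shares and the 3 false calls are therefore not error rates of the real arrays. Genes were named through the platform annotation (22436 probe sets with 1 gene, 95 with several, 34663 without) and the RefSeq gene table (assembly ASM3414082v1, for names and gene order), which held all 17905 genes, 2471 of them with a name. The number of arrays limits the precision.

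The members and the lists were chosen with earlier results of these data known. Named were all 26 calls, the genes with a name short of the threshold but past an unadjusted p of 0.01 (10 per direction at most, a part of them described), members of each list with the smallest p, and 11 genes whatever their p. Members mentioned beyond the 3 with the smallest p (CESA3, CESA6, EXLA1, EXLA2, LOX5, AOS3 and SHR1) were chosen after their values were seen. Where both arrays of a genotype lay under background, a fold is given as "at least", against the background, and the modelled difference there is no bound.

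The design text describes 2 independent repetitions. As a check of pairing, the deviations of same-numbered arrays correlated at r = 0.00776 to 0.249 over the 15 pairs of groups, above 0.1 in 11. Over the 14209 probe sets with a mean signal above 100 the range was -0.113 to 0.579, also above 0.1 in 11. Between both 4 h groups r was 0.0374 over all probe sets and -0.0501 over the bright ones. Between 0 h and 4 h it was 0.441 in wild type and 0.558 in crl1 over the bright ones. The spread was pooled over all groups, so the 4 h pair alone does not show that repetition can be left out. The fit with repetition as a block was an alternative, with 36 probe sets past the threshold at 4 h and 0 for the change from 0 h. P-values set a difference against the spread between these arrays, pooled over all groups and drawn in part from other probe sets.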

Additional observations from a re-analysis of the deposited data

How the results depend on the processing

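The count at 4 h, 26, was 36 with repetition as a replicate block (25 of the 26 among them), 24 with each array centred on its median, 27 after quantile normalization, 21 with an offset of 16 and 25 without the intensity trend. It was 43 with the 4 h arrays alone (18 shared), 17 without a filter, 9 with a 75th percentile filter, 99 with array weights and 94 with the GAPDH ratio as a covariate, the last 2 with all 26 among them. Fewer probe sets tested (75th percentile) or more dim ones (no filter) belong to the construction of those settings, and for the others the cause was not tested. Leaving out 1 array at a time gave 7 to 44. The change of the genotype difference from 0 h gave 0 throughout, and that from 2 h gave 0 to 1705, with 1705 solely in the fit without wild type 2 h repetition 1. Neither has a value from the 4 h arrays alone. Of the 26, 9 passed in every setting other than leaving out an array. Over the named genes and settings, 3272 values kept direction and side of the threshold, 206 fell below it, 38 came to pass it and 0 reversed. Most named genes had not passed in the main fit, and only the 26 calls could fall below the threshold. The 206 therefore all belong to the 26 calls, and the 3272 is no measure of how stable those calls were. For the GRAS and root architecture list the 75th percentile filter left no value. The block ended 1 call, that of Os.27208.1.S1_at (adjusted p 0.0502). List medians had another sign in 35 of 857 settings, and those of primary-wall cellulose synthases (0.51 to 0.94), kinesins (0.30 to 0.59), photosynthesis (-0.59 to -0.41) and clock genes (-0.38 to -0.14) kept theirs in all. Centring moved the median of all probe sets from 0.03 to -0.05. With a background near the median signal, differences in dim genes are bounds at best.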
